A study of Homo sapiens with 12 samples.

Results

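Translation initiation factors are the proteins that bring the small ribosomal subunit, the initiator tRNA and the messenger RNA together at the start codon, and most are named eIF with a number for the step they serve. eIF2 carries the initiator tRNA and is recharged by its exchange factor eIF2B, and stress kinases phosphorylate eIF2 to slow that recharging. eIF3 is a scaffold on the small subunit, and eIF4F (the cap-binding protein eIF4E, the scaffold eIF4G and the helicase eIF4A) recruits the messenger RNA, with the 4E-binding proteins (4E-BPs) holding eIF4E back until mTOR phosphorylates them. In head and neck squamous carcinoma the family is best known for eIF4E, which these tumours often carry at a raised level.

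The genes described here are the 50 of 18404 measured genes whose symbol starts with EIF, chosen by symbol. Where a gene had several probe sets, the one with the highest mean across the 12 arrays was used, without regard to groups. The family itself was taken up with earlier results of these data known. Its counts beside those of all genes are therefore a description. They comprise 5 genes named for eIF1, 15 named for eIF2 (its subunits, eIF2B, the eIF2 kinases and a pair of tRNA-delivery factors), 12 for eIF3, 13 for eIF4, 4 for eIF5 and eIF6, and 1 non-coding gene, EIF3J-DT. The Y-linked EIF1AY is counted among the 50 but its values are not given. EIF symbols that the platform table lists only on probe sets shared with other genes, EIF3C, EIF4A1, EIF4EBP3 and EIF5A among them, were not analysed here.

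RNA was measured on 12 Affymetrix Human Gene ST arrays from JHU-029 and FaDU, established lines of human head and neck squamous cell carcinoma. Each line received a lentiviral short hairpin RNA against TP63 (shTP63) or a control vector (shControl), with 3 arrays per line and treatment and RNA taken 72 hours after knockdown. TP63 encodes p63, a transcription factor of basal squamous cells, and its own level is not analysed here. No further agent is named in the labels, which give neither the number of hairpins nor separate cultures for the replicates, so the spread behind each p-value may be technical. Titles of 2 of the 3 FaDU control arrays, replicates 1 and 2, carry an extra word whose meaning the labels do not give. The titles number the FaDU arrays of both groups from 2 to 4, and the numbers 1 to 3 used throughout are those of the descriptions, in the same order.

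Values are log2 of the deposited linear intensity, and a difference of 1 on this scale is a doubling. Median linear intensity per array ran from 88.2 to 94.6, arrays of a group correlated at 0.993 to 0.997 over all probe sets, and arrays of different lines at 0.94 to 0.951. The mean of 48 of the 50 genes lay above the median of all probe sets, 6.52 on the log2 scale. The median standard deviation (SD) of the 50 genes within a group was 0.03 in JHU-029 controls, 0.05 in JHU-029 shTP63, 0.08 in FaDU controls and 0.05 in FaDU shTP63 arrays (n = 3 each). The 6 epithelial markers were the squamous keratins KRT5 and KRT14, the junction genes CDH1 and DSP, SFN, and EPCAM, a gene mainly of simple epithelium. All 6 read above the median of all probe sets in the controls of both lines, KRT5 at 13.25 in JHU-029 and 12.39 in FaDU on average. Of 8 fibroblast markers 2 did so in JHU-029 (COL1A1 and FAP) and 1 in FaDU (COL1A1), over a range of 3.15 to 8.09. Of 7 immune markers 2 did so in JHU-029 and 3 in FaDU, CD68 reaching 10.85 while PTPRC read at most 3.42, and of 6 endothelial markers 1 and 2. After knockdown in FaDU 4 of the 6 epithelial markers fell (KRT5 by 1.41), 2 of 7 immune markers rose (CD14 and LYZ, the latter to 4.89 on average), 1 of 6 endothelial markers rose (CDH5, by 1.00) and 0 of 8 fibroblast markers passed the test (1 at an unadjusted p under 0.05 in the limma fit). In JHU-029 EPCAM rose by 0.25, a call lost without any one of 5 JHU-029 arrays (all but shTP63 replicate 1), and no other of these 27 markers passed. The part of these shifts in the results below was not tested.

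In the promoter table of RefSeq (GRCh38.p14) 41 of the 50 genes had at least 1 window, 52 windows in all, each running from 250 bases before a transcription start to 50 after it. The bases upstream of the start are printed for 4 entries chosen with the results known. EIF4EBP2 was the only gene of the 50 past the test in both lines. EIF2B3 and EIF3K fell in FaDU, differed from JHU-029 in their response, and each holds an E-box, the letters CACGTG, shown in capitals. EIF3J and EIF3J-DT start back to back on opposite strands, fell together in FaDU, and share the bases between their starts. All are written 5′ to 3′ on the strand of the named gene, and the shared stretch on the strand of EIF3J, at chr10:70403895-70404144 (plus strand), chr1:44986596-44986845 (minus), chr19:38618938-38619187 (plus) and chr15:44536924-44537146 (plus) in turn.
EIF4EBP2: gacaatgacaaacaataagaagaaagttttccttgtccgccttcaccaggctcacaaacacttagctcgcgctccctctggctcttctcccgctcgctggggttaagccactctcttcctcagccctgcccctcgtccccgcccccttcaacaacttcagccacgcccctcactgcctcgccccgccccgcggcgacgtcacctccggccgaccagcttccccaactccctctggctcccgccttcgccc
EIF2B3: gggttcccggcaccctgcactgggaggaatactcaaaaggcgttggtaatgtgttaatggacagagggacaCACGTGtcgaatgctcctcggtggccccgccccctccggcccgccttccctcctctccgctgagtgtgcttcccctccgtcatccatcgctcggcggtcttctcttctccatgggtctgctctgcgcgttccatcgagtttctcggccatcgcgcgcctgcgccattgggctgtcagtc
EIF3K: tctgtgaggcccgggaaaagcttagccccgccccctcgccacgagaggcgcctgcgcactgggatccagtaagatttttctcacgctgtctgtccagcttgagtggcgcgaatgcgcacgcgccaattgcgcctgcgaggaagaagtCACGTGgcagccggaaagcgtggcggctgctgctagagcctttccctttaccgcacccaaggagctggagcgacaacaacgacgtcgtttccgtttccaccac
EIF3J and EIF3J-DT: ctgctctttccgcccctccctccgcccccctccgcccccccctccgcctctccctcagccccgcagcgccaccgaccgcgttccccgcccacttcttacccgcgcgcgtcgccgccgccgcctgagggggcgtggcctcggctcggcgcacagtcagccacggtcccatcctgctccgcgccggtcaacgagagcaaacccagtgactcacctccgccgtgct
The 223 bases between EIF3J and EIF3J-DT were 74.9% G or C, against 61.6% to 63.2% for the other stretches.

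Motifs were searched on both strands of all 35116 windows of 300 bases. The E-box CACGTG, known as a site of MYC and related factors, lay in 11 of the 52 windows (21.2%), against 7.26% of all windows. The ETS core CCGGAAG lay in 14 of the 52 (26.9%), against 10.3% of all. The C/EBP-ATF letters TGATGNAA lay in 1 window, that of EIF4E3, against 3.62% of all windows. Of the 18 genes that fell in FaDU, 16 had a window, and 3 of them held the E-box (EIF2B3, EIF3K and EIF4G1) and 3 the ETS core (EIF2S3B, EIF4EBP2 and EIF6, in EIF4EBP2 not within the printed stretch). A pair of CATG cores 6 bases apart, as in a p63 element, lay in 0 of the 52 windows and in 0.373% of all, and the NRF1 element in 0 and 1.24%. A match is a description of letters, and the absence of one says only that the letters are not in these windows.

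After TP63 knockdown in FaDU cells 18 of the 50 initiation factor genes fell and 2 rose. The falls included both 4E-BP genes analysed, the eIF4F scaffold EIF4G1, the eIF3 core subunit EIF3B and the eIF2 kinase EIF2AK4. The largest fall was 1.66-fold. Both rises, of EIF2AK3 and EIF3F, were at most 1.20-fold. In JHU-029 cells 1 of the 50 fell, EIF4EBP2, and 0 rose, with 5 at an unadjusted p under 0.05 in limma. Calls are adjusted p under 0.05 in limma, Benjamini-Hochberg over all 18404 genes of a comparison, and all adjusted p-values below are of that kind.

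Over all genes 12.4% rose and 14.2% fell in FaDU, and among the 12209 genes with a group mean at or above the overall median 16.4% rose and 20.3% fell. In JHU-029 1.8% of all genes rose and 1.35% fell, and 2.56% and 1.97% of the brighter ones. The median log2 change of the 50 genes was -0.11 in FaDU, where that of all genes was 0.02, and 0.02 in JHU-029, where that of all genes was 0.00. In FaDU the 3 shTP63 arrays all lay below the 3 controls for 24 of the 50 genes and all above for 3. This stands against 18% and 18.1% of all genes, and 3082 and 2746 of the 12209 brighter ones. In JHU-029 the corresponding counts were 6 below and 10 above, against 11.7% and 13.3% of all genes and 1762 and 2135 of the brighter ones.

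**Figure D1:**
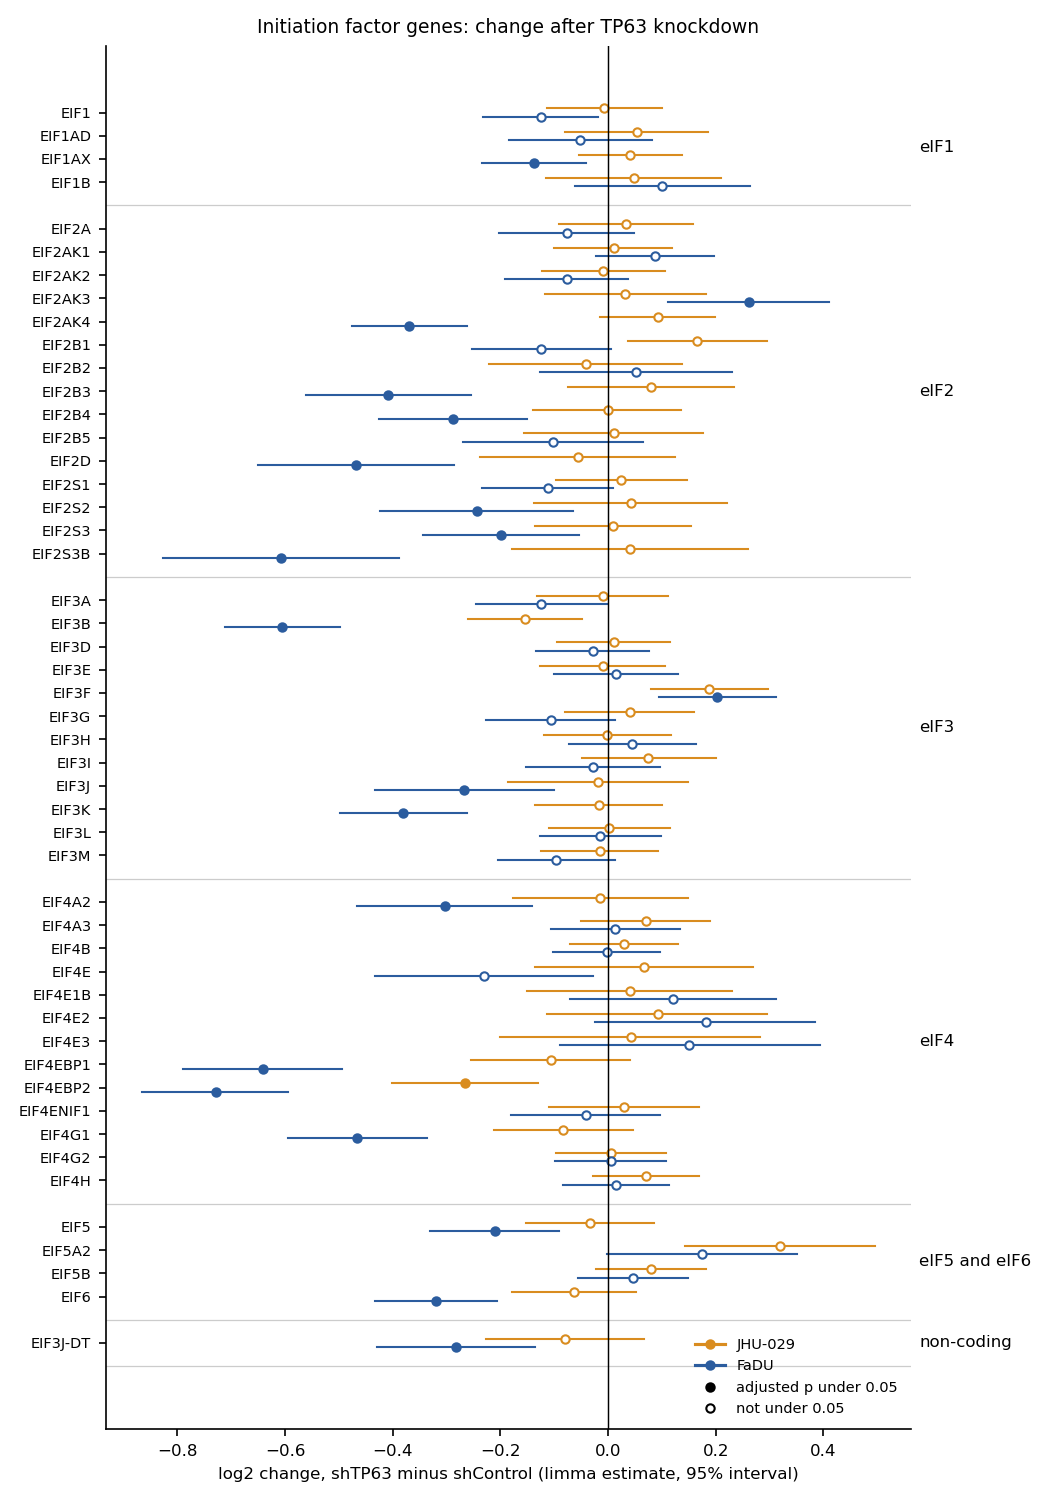
Log2 change from shControl to shTP63 (x axis, limma estimate with its 95% interval) for 49 of the 50 initiation factor genes in JHU-029 (orange) and FaDU (blue), 3 arrays per group, by family, with filled points where the adjusted p was under 0.05. The FaDU points of EIF4EBP2, EIF4EBP1, EIF2S3B and EIF3B lie farthest to the left, between -0.73 and -0.61, and the only filled JHU-029 point is EIF4EBP2.

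Among the eIF4 genes 4 of 13 fell in FaDU and 0 rose, against 20.3% and 16.4% of the brighter genes. EIF4EBP2, a repressor that binds eIF4E when not phosphorylated, read 10.16, 10.15 and 10.16 in the FaDU controls and 9.53, 9.30 and 9.45 in the FaDU shTP63 arrays. It read 11.19, 11.19 and 11.21 in the JHU-029 controls and 10.88, 11.01 and 10.90 in the JHU-029 shTP63 arrays. The groups did not overlap in either line, and all 6 FaDU arrays lay below all 6 JHU-029 arrays. The change was -0.73 in FaDU (SE 0.06, adjusted p = 4.04e-06) and -0.27 in JHU-029 (SE 0.06, adjusted p = 0.0386). The JHU-029 call was lost on leaving out any one of the 6 JHU-029 arrays or the FaDU shTP63 replicate 3, with adjusted p up to 0.147, while the FaDU call was kept in all 12 fits that left out 1 array.

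EIF4EBP1, also a repressor of eIF4E, read 9.01, 9.15 and 9.20 in the FaDU controls and 8.46, 8.40 and 8.58 after knockdown. It changed by -0.64 there (SE 0.07, adjusted p = 2.11e-05) with no overlap. In JHU-029 it read 9.72, 9.61 and 9.60 in controls and 9.59, 9.50 and 9.52 after knockdown, a change of -0.11 (adjusted p = 0.551). All 3 knockdown arrays of JHU-029 were thus below the controls, by less than the test required. EIF4G1, which bridges the cap-binding protein and the ribosome through eIF3, read 10.37, 10.18 and 10.24 in FaDU controls and 9.74, 9.85 and 9.81 after knockdown, a fall of 0.47 (SE 0.06, adjusted p = 9.23e-05). Its JHU-029 arrays read 10.40, 10.41 and 10.43 in controls and 10.36, 10.28 and 10.35 after knockdown, a change of -0.08 (adjusted p = 0.625). The JHU-029 groups did not overlap either, but their means were only 0.08 apart.

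EIF4A2, a helicase that unwinds the 5′ end of messenger RNA, read 11.38, 11.13 and 11.23 in FaDU controls and 11.09, 10.87 and 10.88 after knockdown, a fall of 0.30 (SE 0.08, adjusted p = 0.00892). The FaDU groups were apart, while the JHU-029 arrays read 11.08, 11.13 and 11.09 in controls and 11.03, 11.12 and 11.11 after knockdown, which overlapped. A second EIF4A2 probe set gave -0.39 in FaDU (SE 0.07, adjusted p = 0.00139), while between the control lines it differed by 3.78, against 0.15 for the probe set used. EIF4E, the cap-binding protein itself, read below the median of all probe sets, at a mean of 6.12 in FaDU controls, and its change of -0.23 there did not pass (adjusted p = 0.0892). The other 8 eIF4 genes changed by -0.04 to 0.18 in FaDU without passing, among them EIF4B and EIF4H, cofactors of the helicase, and EIF4G2, a relative of eIF4G that lacks the eIF4E-binding site. The second EIF4H probe set disagreed with the one used: it rose by 0.66 in FaDU (SE 0.09, adjusted p = 0.000125), against 0.02 for the brighter set. The median change of the 13 eIF4 genes in FaDU was -0.003 and turned to 0.019 under cyclic loess and under quantile normalization, so it has no settled direction.

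**Figure D2:**
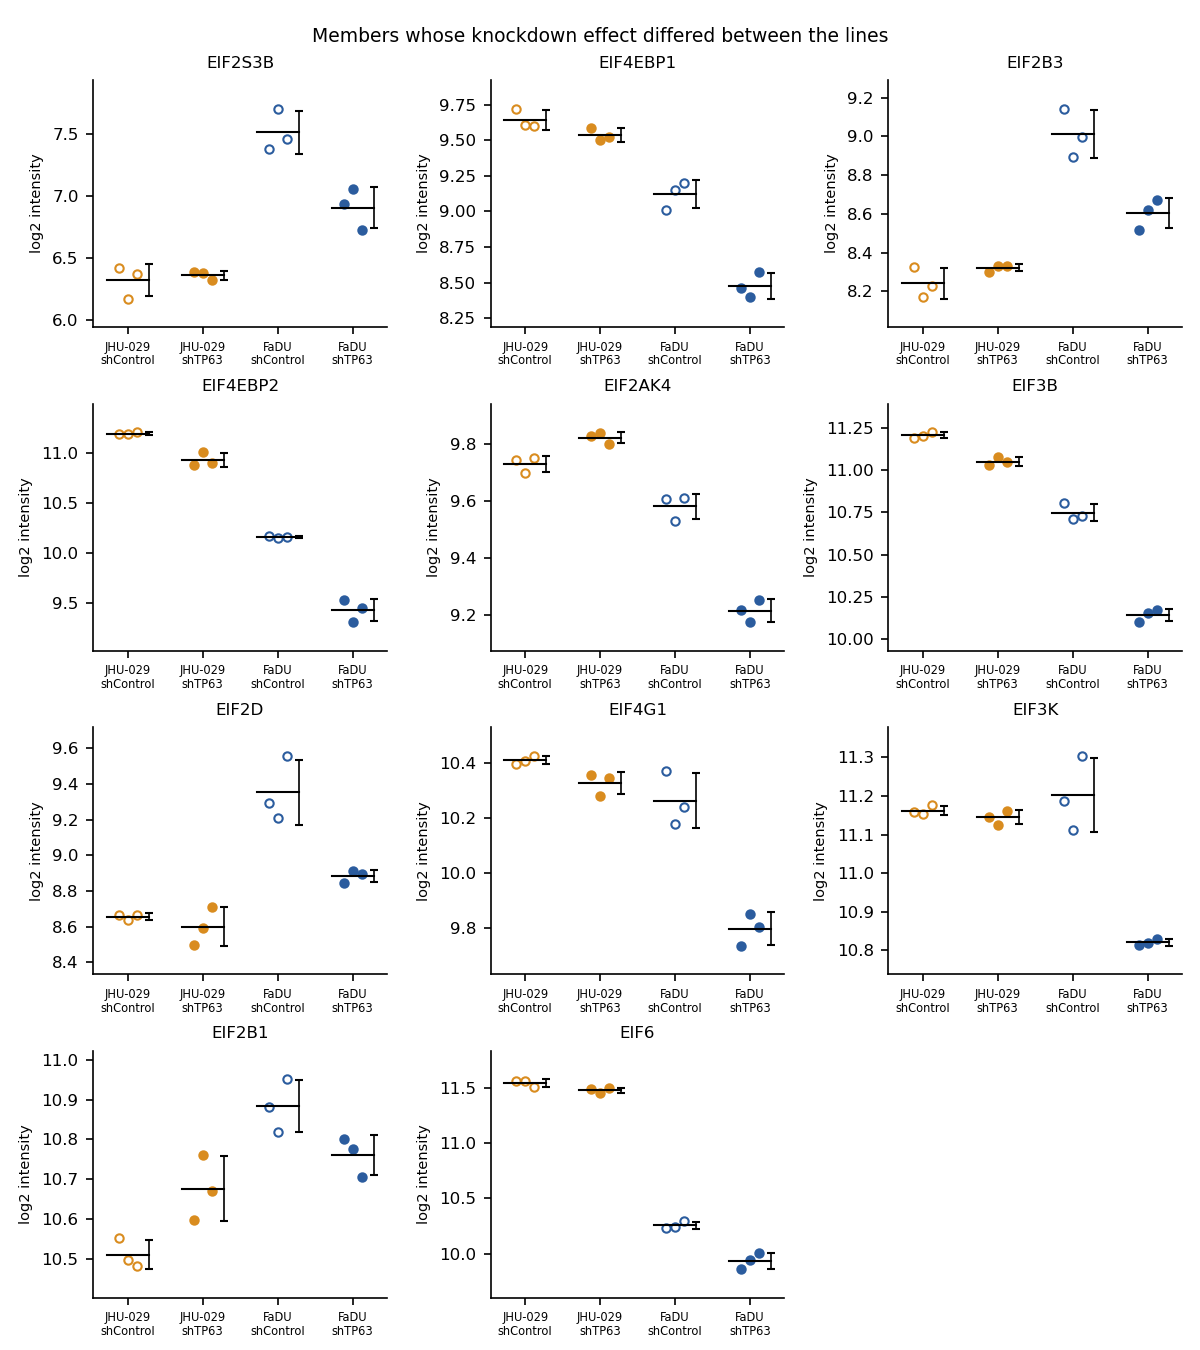
Log2 intensity (y axis) of each array in the 4 groups (x axis; open points shControl, filled points shTP63, black line the mean with SD, n = 3) for the 11 initiation factor genes whose knockdown effect differed between the lines. The FaDU shTP63 arrays lie below the FaDU controls in each panel, while in JHU-029 the steps are smaller except for EIF2B1, and upward for EIF2B1, EIF2AK4, EIF2B3 and EIF2S3B.

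Of the 12 eIF3 genes 3 fell in FaDU and 1 rose. That is near the shares of the brighter genes, 20.3% and 16.4%. EIF3B, a core subunit that anchors several others, read 10.81, 10.71 and 10.73 in FaDU controls and 10.10, 10.16 and 10.17 after knockdown, a fall of 0.61 (SE 0.05, adjusted p = 2.66e-06), the smallest p of the 50 genes. In JHU-029 it read 11.19, 11.20 and 11.22 in controls and 11.03, 11.08 and 11.05 after knockdown, a change of -0.15 without overlap that did not pass (adjusted p = 0.131). EIF3K, a small subunit, read 11.19, 11.11 and 11.30 in FaDU controls and 10.81, 10.82 and 10.83 after knockdown, a fall of 0.38 (SE 0.05, adjusted p = 0.000213). Its JHU-029 arrays read 11.16, 11.15 and 11.18 in controls and 11.15, 11.13 and 11.16 after knockdown, which overlapped.

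EIF3J, a loosely bound subunit that acts at the decoding site, read 10.01, 9.83 and 9.87 in FaDU controls and 9.48, 9.67 and 9.75 after knockdown, a fall of 0.27 (SE 0.08, adjusted p = 0.0212). Its divergent non-coding neighbour EIF3J-DT, which starts from the other end of the stretch printed above, read 8.64, 8.63 and 8.50 in controls and 8.35, 8.39 and 8.18 after knockdown, a fall of 0.28 (SE 0.07, adjusted p = 0.00735). Both pairs of FaDU groups were free of overlap, and in JHU-029 neither gene passed (EIF3J 9.36, 9.34 and 9.31 in controls and 9.35, 9.39 and 9.22 after knockdown, EIF3J-DT 8.20, 8.06 and 8.08 in controls and 8.01, 8.06 and 8.04 after knockdown, the latter without overlap). The EIF3J call was lost without FaDU shControl replicate 1 (adjusted p = 0.0855) or FaDU shTP63 replicate 1 (adjusted p = 0.0835). Without FaDU controls 1 and 2, those with the extra title word, EIF3J-DT changed by only -0.19 and its call was lost (adjusted p = 0.192), as was that of EIF3J (adjusted p = 0.166).

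EIF3F, a subunit with an MPN domain, was the 1 eIF3 gene that rose. It read 10.71, 10.72 and 10.77 in FaDU controls and 10.87, 10.98 and 10.96 after knockdown, a rise of 0.20 (SE 0.05, adjusted p = 0.00872). In JHU-029 it read 11.28, 11.27 and 11.31 in controls and 11.50, 11.45 and 11.46 after knockdown, a change of similar size, 0.19, that missed the threshold (adjusted p = 0.0673). The shTP63 arrays lay above the controls in both lines. Averaging this probe set with a second, dim EIF3F set (mean 5.74) gave 0.13 in FaDU (adjusted p = 0.67), and without FaDU controls 1 and 2 the call was lost (adjusted p = 0.134). The remaining 8 eIF3 genes changed by -0.12 to 0.05 in FaDU and did not pass, including the scaffold EIF3A (adjusted p = 0.131) and EIF3D, which can itself bind a cap, and the RNA-binding EIF3G.

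Of the 15 eIF2-named genes 7 fell in FaDU and 1 rose, against 20.3% and 16.4% of the brighter genes. In JHU-029 0 of the 15 passed (1 at an unadjusted p under 0.05, EIF2B1). Among the subunits of eIF2 itself, EIF2S2, the beta subunit, read 10.23, 10.10 and 10.26 in FaDU controls and 9.78, 10.07 and 10.01 after knockdown, a fall of 0.24 (SE 0.08, adjusted p = 0.045). EIF2S3, the gamma subunit that binds the initiator tRNA, read 11.90, 11.90 and 12.05 in controls and 11.79, 11.76 and 11.70 after knockdown, a fall of 0.20 (SE 0.07, adjusted p = 0.0435). EIF2S3B, a near-identical copy of EIF2S3, read 7.38, 7.71 and 7.46 in controls and 6.93, 7.06 and 6.73 after knockdown, a fall of 0.61 (SE 0.10, adjusted p = 0.000652). The FaDU groups of all 3 were apart, but signal of EIF2S3 and EIF2S3B may be shared between their probes, which makes the separate values uncertain.

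The JHU-029 arrays of these subunit genes showed no call. EIF2S2 read 10.86, 10.81 and 10.93 in controls and 10.79, 10.93 and 10.995 after knockdown, EIF2S3 read 10.77, 10.88 and 10.95 in controls and 10.91, 10.92 and 10.79 after knockdown, and EIF2S3B read 6.42, 6.17 and 6.38 in controls and 6.39, 6.38 and 6.32 after knockdown. The alpha subunit EIF2S1, the one that the stress kinases phosphorylate, changed by -0.11 in FaDU (adjusted p = 0.171) and did not pass. The FaDU call of EIF2S2 was lost without any one of 8 arrays (all but JHU-029 shTP63 replicates 1 and 3 and replicate 2 of both FaDU groups), and without FaDU shTP63 replicate 1 the change was -0.16 (adjusted p = 0.168). That of EIF2S3 was lost without any one of 8 arrays (all but JHU-029 shControl 1 and 3, JHU-029 shTP63 3 and FaDU shControl 2), with adjusted p up to 0.155.

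In the exchange factor eIF2B, 2 of 5 subunit genes fell in FaDU, where 20.3% of the brighter genes fell. EIF2B3, a subunit of its catalytic subcomplex, read 9.14, 8.90 and 8.996 in FaDU controls and 8.52, 8.62 and 8.67 after knockdown, a fall of 0.41 (SE 0.07, adjusted p = 0.000855). EIF2B4, a subunit of the regulatory subcomplex, read 8.21, 8.08 and 8.25 in controls and 7.83, 7.96 and 7.88 after knockdown, a fall of 0.29 (SE 0.06, adjusted p = 0.00428). Both were apart in FaDU and overlapped in JHU-029, where EIF2B3 read 8.33, 8.17 and 8.23 in controls and 8.30, 8.33 and 8.33 after knockdown and EIF2B4 read 9.13, 8.98 and 8.99 in controls and 9.03, 9.004 and 9.06 after knockdown. EIF2B1, the alpha subunit, gave opposite signs without a call in either line. It read 10.88, 10.82 and 10.95 in controls and 10.80, 10.78 and 10.71 after knockdown in FaDU (change -0.12, adjusted p = 0.154) and 10.55, 10.50 and 10.48 in controls and 10.60, 10.76 and 10.67 after knockdown in JHU-029 (change 0.17, adjusted p = 0.187). EIF2B2 and the catalytic EIF2B5 changed by 0.05 and -0.10 in FaDU and did not pass.

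The 4 eIF2 kinase genes split in FaDU. EIF2AK4 (GCN2), which senses uncharged tRNA, read 9.61, 9.53 and 9.61 in FaDU controls and 9.22, 9.17 and 9.25 after knockdown, a fall of 0.37 (SE 0.05, adjusted p = 0.000127). In JHU-029 it read 9.75, 9.70 and 9.75 in controls and 9.83, 9.84 and 9.80 after knockdown, all 3 knockdown arrays above the controls, a change of 0.09 that did not pass (adjusted p = 0.434). EIF2AK3 (PERK), the kinase of the endoplasmic reticulum, read 7.69, 7.66 and 7.57 in FaDU controls and 7.81, 8.02 and 7.88 after knockdown, a rise of 0.26 (SE 0.07, adjusted p = 0.0127). Its JHU-029 arrays read 8.45, 8.37 and 8.38 in controls and 8.33, 8.48 and 8.49 after knockdown and overlapped. The rise was lost without FaDU shControl replicate 3 (adjusted p = 0.0525) or FaDU shTP63 replicate 2 (adjusted p = 0.0551), and with FaDU fitted alone both it (adjusted p = 0.0515) and the rise of EIF3F (adjusted p = 0.0653) were lost. EIF2AK1, activated by lack of heme, and EIF2AK2 (PKR), activated by double-stranded RNA, changed by 0.09 and -0.08 in FaDU and did not pass.

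**Figure D3:**
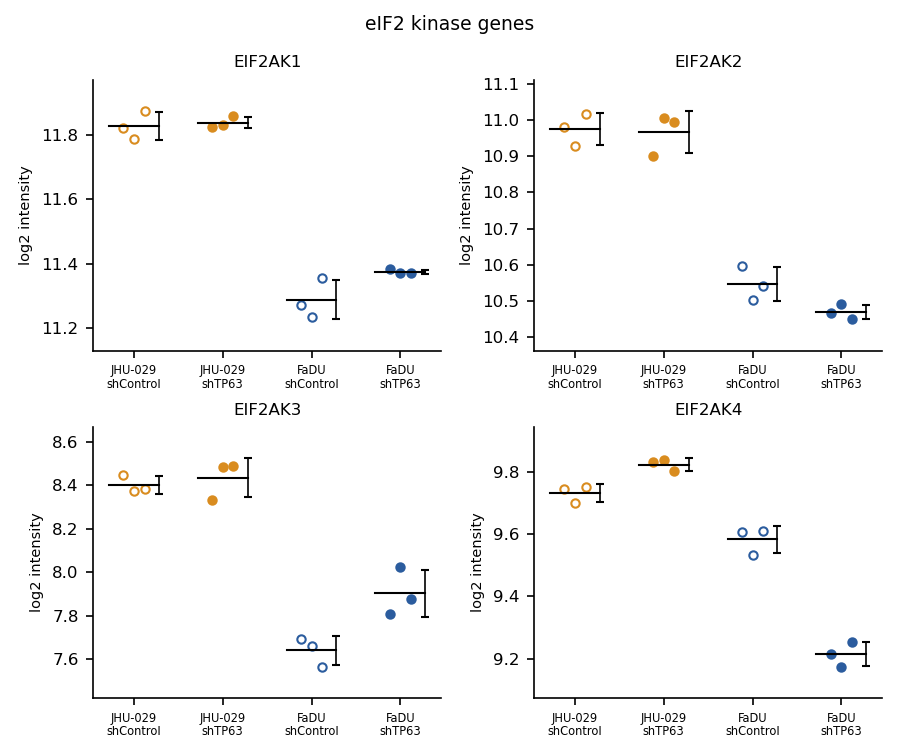
Log2 intensity (y axis) of each array in the 4 groups (x axis; open points shControl, filled points shTP63, black line the mean with SD, n = 3) for the 4 eIF2 kinase genes. In FaDU the EIF2AK4 arrays step down from 9.53 to 9.61 in controls to 9.17 to 9.25 after knockdown, the EIF2AK3 arrays step up, and all 4 genes are lower in FaDU than in JHU-029 controls.

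EIF2D, which can place tRNA on the ribosome without eIF2, was the other eIF2-named gene that fell. It read 9.29, 9.21 and 9.56 in FaDU controls and 8.85, 8.91 and 8.90 after knockdown, a fall of 0.47 (SE 0.08, adjusted p = 0.00108), with the control replicate 3 above its fellows. In JHU-029 it read 8.67, 8.64 and 8.67 in controls and 8.50, 8.59 and 8.71 after knockdown, which overlapped. EIF2A, a separate tRNA-delivery factor despite its name, changed by -0.08 in FaDU and did not pass.

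Of the remaining families, 1 of 5 eIF1-named genes fell in FaDU, as did 2 of the 4 genes for eIF5 and eIF6. Among the brighter genes 20.3% fell. EIF1AX, which helps the small subunit scan for the start codon, read 10.77, 10.79 and 10.79 in FaDU controls and 10.62, 10.65 and 10.66 after knockdown, a fall of 0.14 (SE 0.04, adjusted p = 0.0365) against 10.08, 10.10 and 10.11 in controls and 10.14, 10.14 and 10.14 after knockdown in JHU-029. The groups were apart in both lines, in opposite directions, but the FaDU call was lost on leaving out any one of 11 arrays (all but JHU-029 shTP63 replicate 1), with adjusted p up to 0.0907. A second EIF1AX probe set (mean 10.04) changed by -0.09 in FaDU and did not pass (SE 0.08, adjusted p = 0.466). Averaging the EIF1AX probe sets gave -0.11 in FaDU (adjusted p = 0.158). EIF6, which keeps the large subunit from joining early, read 10.24, 10.24 and 10.30 in FaDU controls and 9.86, 9.95 and 10.01 after knockdown, a fall of 0.32 (SE 0.05, adjusted p = 0.000594). Its JHU-029 arrays read 11.56, 11.56 and 11.50 in controls and 11.49, 11.45 and 11.49 after knockdown, apart by less than the test required (change -0.06, adjusted p = 0.687). EIF5, which triggers hydrolysis of the GTP on eIF2, read 10.33, 10.18 and 10.30 in controls and 10.04, 10.07 and 10.06 after knockdown in FaDU, a fall of 0.21 (SE 0.06, adjusted p = 0.0118), and 10.43, 10.47 and 10.40 in controls and 10.36, 10.45 and 10.39 after knockdown in JHU-029, where the groups overlapped.

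EIF5B, which joins the subunits, and EIF5A2, a hypusine-bearing factor that eases stalled elongation, changed by 0.05 and 0.17 in FaDU and did not pass. EIF5A2 had the largest change of the 50 genes in JHU-029, 0.32 (SE 0.08), with all 3 knockdown arrays above the controls, and missed the threshold (adjusted p = 0.0569). EIF4G1, EIF4A2, EIF2B5, EIF5A2 and EIF2A lie on the long arm of chromosome 3, a region often gained in squamous carcinoma. Their FaDU changes were -0.47, -0.30, -0.10, 0.17 and -0.08, and their JHU-029 changes -0.08, -0.02, 0.01, 0.32 and 0.03.

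The knockdown effect differed between the lines for 11 of the 50 genes, and in 11 of 11 the FaDU change was the lower one. Over all genes the FaDU change was the lower one in 8.25% and the higher one in 4.97%, and among the brighter genes in 12% and 6.63%. This contrast uses the same arrays as both single-line comparisons, so its calls are not separate evidence of them. The largest differences were those of EIF2S3B (-0.65, SE 0.14, adjusted p = 0.0101) and EIF4EBP1 (-0.54, SE 0.10, adjusted p = 0.00314). In JHU-029 EIF2S3B averaged 6.32 in controls and 6.36 after knockdown, below the median of all probe sets, 6.52. Whether that narrowed its change there was not tested. EIF2AK4 had the smallest adjusted p, 0.00109, for a difference of -0.46 (SE 0.07).

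Of the 18 falls in FaDU 10 were also called in this difference, and for the other 8 (EIF1AX, EIF2B4, EIF2S2, EIF2S3, EIF3J, EIF4A2, EIF5 and EIF3J-DT) a difference from JHU-029 was not established. EIF4EBP2 is among the 10: it fell in both lines, by 0.46 more in FaDU (SE 0.09, adjusted p = 0.00444). EIF2B1 was called for the difference alone. The calls of 8 of the 11 were kept in all 12 fits that left out 1 array. That of EIF2B1 was lost without any one of 9 arrays (all but JHU-029 shTP63 1, FaDU shControl 2 and FaDU shTP63 1; adjusted p up to 0.102). For EIF2D it was also lost without any one of 9 (all but JHU-029 shTP63 1 and FaDU shControl 1 and 2; up to 0.0933), and for EIF6 without any one of 10 (all but FaDU shControl 2 and FaDU shTP63 3; up to 0.106).

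Between the control arrays of both lines 43 of the 50 genes differed, 22 higher in FaDU and 21 lower, against 33.4% and 30.4% of all genes and 37.1% and 41.5% of the brighter ones. The lines did not overlap for 23 genes higher in FaDU and 21 lower. This stands against 36.6% and 32.4% of all genes, and 4816 and 5312 of the 12209 brighter ones. EIF2B2, the beta subunit of eIF2B, differed most: 9.45, 9.25 and 9.23 in JHU-029 and 11.05, 11.06 and 11.21 in FaDU controls, 3.47-fold higher in FaDU (log2 difference 1.80, SE 0.08, adjusted p = 7.33e-10). EIF1B, a paralog of the start-codon selection factor EIF1, read 7.33, 7.34 and 7.20 in JHU-029 and 8.93, 8.81 and 8.98 in FaDU controls, 3.06-fold higher in FaDU, while EIF1 itself was lower there by 0.22. EIF2S3B and EIF2S3 were higher in FaDU by 1.19 and 1.08, and EIF3E, an eIF3 subunit, by 1.02 (10.40, 10.49 and 10.44 in JHU-029 and 11.50, 11.40 and 11.51 in FaDU controls). None of these 5 overlapped between the lines.

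In the other direction EIF6 was lower in FaDU by 1.28 (2.43-fold, adjusted p = 2.66e-10), EIF4EBP2 by 1.04, EIF2B4 by 0.85, EIF2AK3 by 0.76 and EIF2S2 by 0.67, from the control values given above. All 4 eIF2 kinase genes were lower in FaDU controls, by 0.15 to 0.76, and both 4E-BP genes analysed were lower, EIF4EBP1 by 0.52. The eIF2 and eIF2B subunits were mixed: 6 of 9 higher and 2 of 9 lower, with EIF2B2 and EIF2B4, partners in one complex, at opposite ends. The eIF3 genes divided evenly, 5 higher and 5 lower. EIF3I, EIF3K, EIF4B, EIF4E, EIF4A2, EIF2B5 and EIF5A2 did not pass. For EIF4B that rests on the brightest of 3 probe sets, since the others were higher in FaDU by 0.24 and 1.33.

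Of the 18 genes that fell in FaDU, 7 were higher in FaDU than in JHU-029 controls and 9 lower, near the shares of the brighter genes (37.1% and 41.5%). These counts share the FaDU control arrays with the knockdown comparison. EIF2B3, EIF2D and EIF2S3B, high in FaDU controls, moved toward the JHU-029 level after knockdown, EIF2B3 to a mean of 8.60 against 8.24 in JHU-029 controls. EIF4EBP2, EIF4EBP1, EIF3B and EIF6, low in FaDU controls, moved farther from it. Both directions follow from the falls and the control levels, and are not further results.

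**Figure D4:**
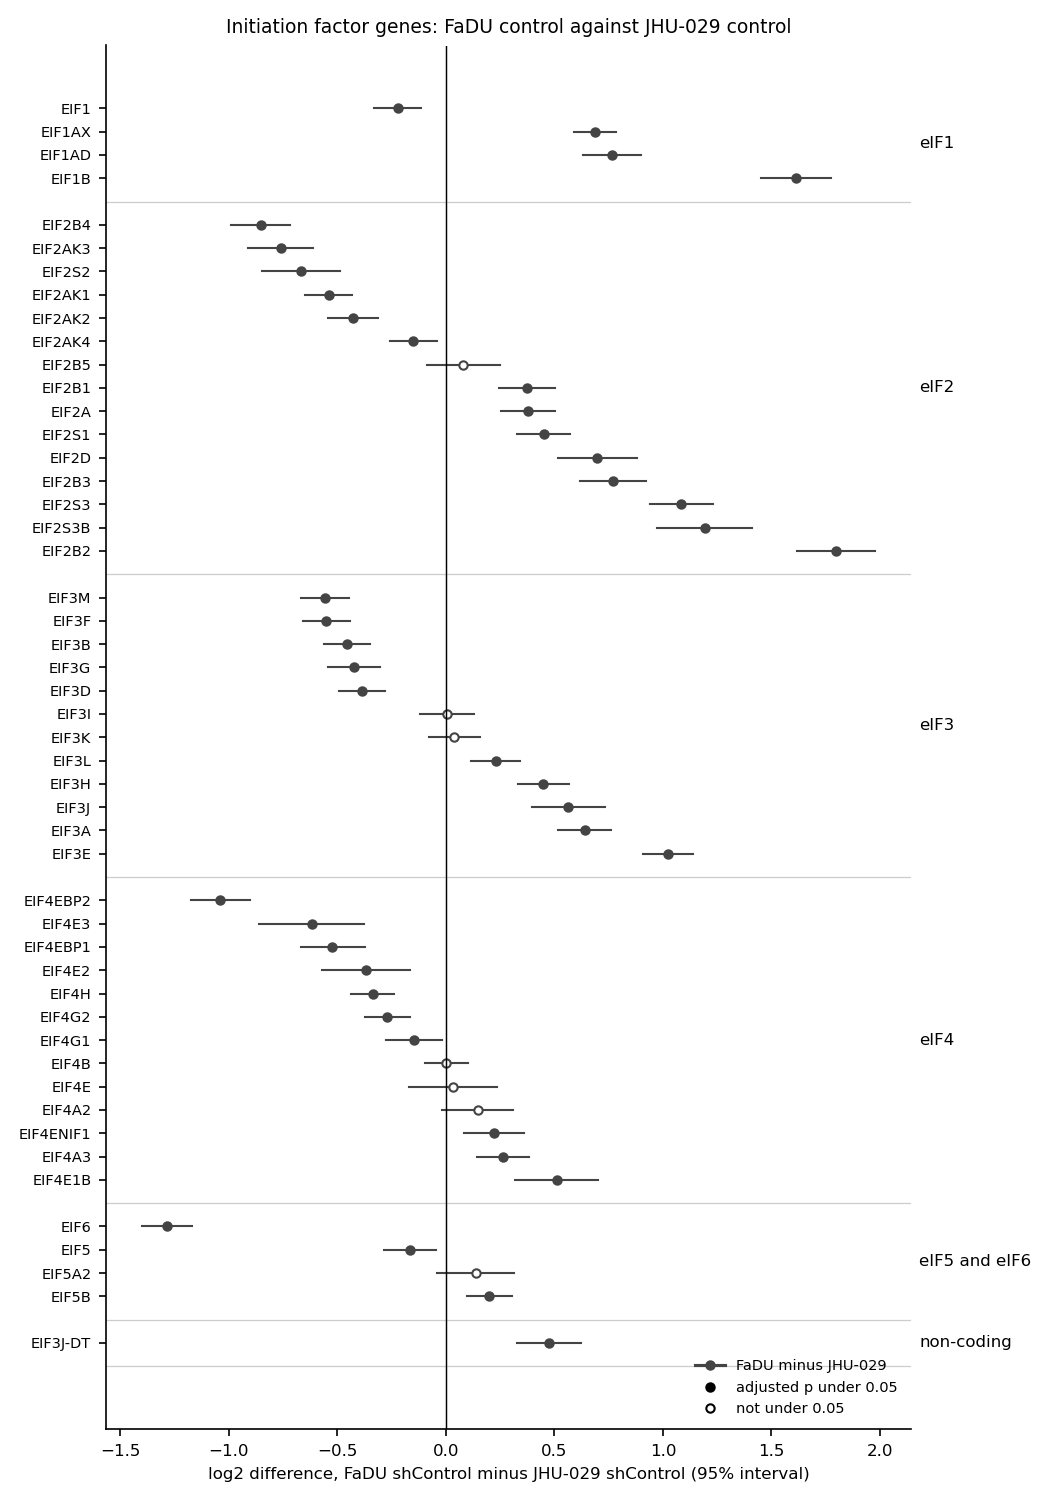
Log2 difference between FaDU and JHU-029 control arrays (x axis, limma estimate with its 95% interval, 3 arrays per line) for 49 of the 50 initiation factor genes, ordered within each family, with filled points where the adjusted p was under 0.05. EIF2B2 and EIF1B lie farthest right at 1.80 and 1.61, EIF6 and EIF4EBP2 farthest left at -1.28 and -1.04, and all 4 eIF2 kinases lie left of 0.

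Other genes of the same pathways were read from 4 lists. In FaDU 12.4% of all genes rose and 14.2% fell, and 16.4% and 20.3% of the brighter ones. The counts of the first 2 lists lie near these shares. Of 24 other initiation proteins and regulators 5 rose and 4 fell in FaDU, with a median change of 0.01. PDCD4, which blocks the eIF4A helicase, rose by 0.79 (SE 0.08), DNAJC3, an inhibitor of eIF2 kinases, by 0.49, and PPP1R15B, which targets a phosphatase to eIF2, by 0.37. GCN1, the ribosome-bound activator of EIF2AK4, fell by 0.33 (SE 0.05), beside BZW2, an eIF5 mimic, by 0.24 and LARP1, a binder of capped mRNA for ribosomal proteins, by 0.22. All had adjusted p from 1.74e-05 to 0.0123, and in JHU-029 0 of the 24 passed (2 at an unadjusted p under 0.05 in the limma fit).

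Of 23 genes of mTOR and MNK signalling 3 rose and 3 fell in FaDU, close to the shares of all genes, with a median of 0.00. RRAGD, a GTPase that brings mTOR to the lysosome, rose by 1.28 (SE 0.10, adjusted p = 2.05e-06) from a dim control mean of 4.85, and TSC1, an inhibitor of the mTOR pathway, by 0.41. RPS6KA1, a kinase downstream of ERK, fell by 0.40 and LAMTOR3, a lysosomal anchor of mTOR, by 0.29. In JHU-029 0 of the 23 passed, with 6 at an unadjusted p under 0.05 in the limma fit.

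Of 15 genes induced when eIF2 is phosphorylated 11 fell and 2 rose in FaDU, with a median of -0.43. SLC7A11, the cystine importer, fell by 1.45 (SE 0.08, adjusted p = 1.33e-07), CHAC1, which degrades glutathione, by 0.99 and ASNS, asparagine synthetase, by 0.89. ATF4, the factor whose translation rises when eIF2 is phosphorylated, was named after its value was seen: it fell by 0.36 (SE 0.06, adjusted p = 0.000776) at the RNA level. CEBPB rose by 0.37. In JHU-029 ASNS fell by 0.42 (adjusted p = 0.00224) and no other of the 15 passed. Including ASNS, 4 of the 15 had an unadjusted p under 0.05 there in the limma fit. In that line 12 of the 15 changes lay below 0, with a median of -0.08. The JHU-029 groups did not overlap for 7 lower genes and 0 higher, against 11.7% and 13.3% of all genes. The difference between the lines was called for 9 genes lower and 2 higher in FaDU. Beside these stand the opposite changes of EIF2AK4 and EIF2AK3 given above, and phosphorylation of eIF2 itself was not measured.

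Of 14 genes for elongation and termination 5 fell and 1 rose in FaDU, with a median of -0.11. EEFSEC, the elongation factor for selenocysteine, fell by 0.46 in FaDU and 0.32 in JHU-029, EEF1B2, an exchange factor for eEF1A, by 0.45 in FaDU and ABCE1, which splits ribosomes for reuse, by 0.35. HBS1L, a ribosome rescue factor, rose by 0.23 (adjusted p = 0.0324), a call lost without FaDU shControl 2 or FaDU shTP63 1 or 2. EEF1A2, a tissue-restricted form of eEF1A, rose in JHU-029 by 0.42 (adjusted p = 0.00258).

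**Figure D5:**
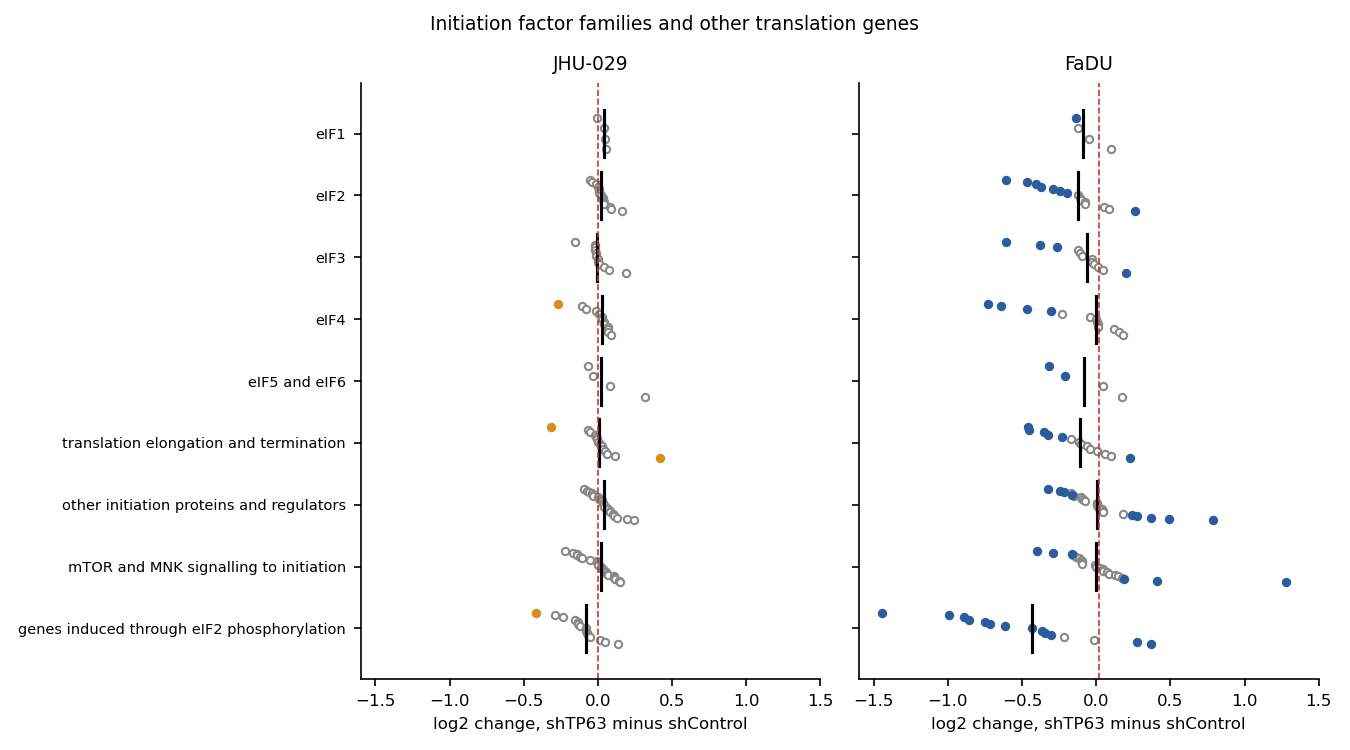
Log2 change from shControl to shTP63 (x axis, limma estimate, 3 arrays per group) of each gene in the initiation factor families (EIF1AY and EIF3J-DT not drawn) and in 4 lists of other translation genes, in JHU-029 and FaDU. Filled points passed an adjusted p under 0.05, black lines are medians of the genes drawn, and the dashed line is the median of all genes, 0.00 in JHU-029 and 0.02 in FaDU. Genes induced through eIF2 phosphorylation lie farthest left in FaDU, with SLC7A11 at -1.45. In JHU-029 most points lie near 0, and the median of the eIF2 phosphorylation list is -0.08.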

How the data were processed

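Total RNA of 12 cell-line samples was read on single-colour Affymetrix Human Gene ST arrays. The deposited values are linear intensity, which the authors made with RMA (background correction, normalization and probe summary) in R 2.15.1, per the submitters' processing notes; joint normalization of all arrays is not stated there, and RMA narrows differences of dim probe sets. Intensities were put on a log2 scale from the deposited values. Of 32321 probe sets 19158 had 1 symbol in the platform table, 1388 several and 11775 were not listed there; only the first kind was used, which left 18404 genes.

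The 4 groups were fitted with limma 3.58.1 in R 4.3.3 on all 12 arrays (8 residual and 4.17 prior degrees of freedom), with 2-sided moderated tests and Benjamini-Hochberg adjustment over all genes of a contrast at 0.05. Errors are SE of the fit or SD over 3 arrays. The script was tested on simulated data. Precision is limited by the small number of arrays.

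The genes and lists were chosen with earlier results of these data known. Named with all arrays were the genes called after knockdown or for the difference, and the 5 largest control differences each way, except Y-linked genes; of other lists, up to 3 called genes per direction and line. Replicate numbers are those of the descriptions, 1 to 3 in every group (the FaDU titles run from 2 to 4). They did not pair the arrays within a line: correlations of same-numbered deviations ran from -0.34 to 0.01. Alternatives were other scalings, a variance trend, dim genes left out, other probe set rules, replicate blocks, each line alone, and leaving out arrays.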

Additional observations from a re-analysis of the deposited data

Results flagged for a closer look

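The knockdown effect differed between the 2 lines, by limma's test of the difference between the effects (adjusted p under 0.05), for these genes, each given as FaDU effect minus JHU-029 effect on the log2 scale. Within eIF4 they were EIF4EBP1 at -0.54 (FaDU -0.64, JHU-029 -0.11), EIF4EBP2 at -0.46 (FaDU -0.73, JHU-029 -0.27) and the scaffold EIF4G1 at -0.38 (FaDU -0.47, JHU-029 -0.08). Within eIF3 they were EIF3B at -0.45 (FaDU -0.61, JHU-029 -0.15) and EIF3K at -0.36 (FaDU -0.38, JHU-029 -0.02). Among the eIF2-named genes they were EIF2S3B at -0.65 (FaDU -0.61, JHU-029 0.04), EIF2B3 at -0.49 (FaDU -0.41, JHU-029 0.08), the kinase EIF2AK4 at -0.46 (FaDU -0.37, JHU-029 0.09), EIF2D at -0.41 (FaDU -0.47, JHU-029 -0.06) and EIF2B1 at -0.29 (FaDU -0.12, JHU-029 0.17). EIF6 followed at -0.26 (FaDU -0.32, JHU-029 -0.06). For EIF2B1, EIF2AK4, EIF2B3 and EIF2S3B the estimates have opposite signs in the lines, without a call in JHU-029. The JHU-029 means of EIF2S3B lay below the median of all probe sets.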

How the results depend on the processing

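Over 935 alternatives of the 42 named gene values, 821 kept their call, 114 lost it and 0 changed sign; 28 values kept it in all, 11 of the 18 FaDU falls among them (EIF2AK4, EIF2B3, EIF2B4, EIF2D, EIF2S3B, EIF3B, EIF3K, EIF4EBP1, EIF4EBP2, EIF4G1 and EIF6). The FaDU count of 20 became 12 with each line fitted alone, 14 without FaDU controls 1 and 2, and 16 to 19 on leaving out 1 array. The JHU-029 count of 1 became 0 under median scaling, 2 under quantile normalization, 5 with a variance trend, 3 with dim genes left out, 2 with each line fitted alone and 0 to 2 on leaving out 1 array; without FaDU controls 1 and 2 it was 1, sharing 0 genes with the reported call. The count of 11 differences ran from 8 to 13 on leaving out 1 array, and the 43 differences between control lines ran from 39 to 44 over the alternatives run. With the description's replicate number as a fixed block within each line, counts were 16 in FaDU, 0 in JHU-029 and 7 for the difference. The arrays did not bear out that pairing. With the same blocks as random (correlation -0.13) the counts were 17, 0 and 8. With each line fitted alone 8 FaDU calls were lost, those of both rises, EIF2AK3 (adjusted p = 0.0515) and EIF3F (adjusted p = 0.0653), and of the falls of EIF4A2 (adjusted p = 0.0541), EIF5 (adjusted p = 0.0671), EIF3J (adjusted p = 0.0767), EIF2S3 (adjusted p = 0.0943), EIF2S2 (adjusted p = 0.109) and EIF1AX (adjusted p = 0.165), and among the other genes named those of BZW2 (adjusted p = 0.0637) and HBS1L (adjusted p = 0.1). Leaving out FaDU controls 1 and 2 leaves 1 FaDU control. In that fit the FaDU calls of EIF1AX (change -0.15), EIF2S2 (-0.30) and EIF4A2 (-0.28) were lost. So were those of EIF3F, EIF3J and EIF3J-DT given above, and of EEF1B2 (-0.35), LARP1 (-0.18) and HBS1L (0.16). The JHU-029 call of EIF4EBP2 (change -0.27) and the difference call of EIF6 (-0.295) were lost in it too. The 53 values of genes from the other lists changed sign in 0 alternatives. The median difference of the eIF2 genes moved from -0.21 to -0.31 without FaDU controls 1 and 2. The eIF3 median between control lines, 0.02, became -0.03 under median scaling. The causes were not tested. Background was not measured in the values used, so what signal over background limits could not be read from them.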
